A study of Rattus norvegicus with 4 samples.

Results

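Of the 6240 clones spotted on the arrays, 3 were matched to steroid sulfotransferases listed by the study, the clones RNABK74, RNABK88 and RNABK44. Whether other clones carry such transcripts is not known. They were chosen by their measured values. The rows hold clone identifiers without gene names, and each of these clones was selected on its mean ratio over the 4 arrays, which equals the female over male ratio that the study tabulated for 1 sulfotransferase. The size and direction of their mean sex difference were therefore given beforehand and are described here without a test. The arrays compared livers of young female and male Sprague Dawley rats, 3 months old, with 1 untreated female against 1 untreated male animal on each of the 4 arrays. Female RNA carried the dye Cy3 on arrays 1 and 2 and Cy5 on arrays 3 and 4. Each value is a log2 ratio of female over male, so that a value of 1 stands for a 2-fold higher level in the female animal. Whole liver was used, and a higher ratio cannot be told apart from a different share of the cells that express a gene. Without gene names the tissue could not be checked against its markers.

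Sulfotransferases of the SULT2A family are cytosolic enzymes that pass a sulfonate group from the donor PAPS to hydroxyl groups of steroids, among them dehydroepiandrosterone, and of bile acids. The sulfated products are more soluble in water and are more readily excreted. In rat liver the family is known for higher levels in females, and its expression follows the pattern in which the pituitary secretes growth hormone, which is pulsatile in males and more continuous in females. Senescence marker protein 2 is a member that owes its name to a level in male liver that is low in the mature animal and changes with age.

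The names rest on a match of ratios alone. Rounded to 2 decimals, the mean ratios of RNABK74, RNABK88 and RNABK44 were 9.73, 9.17 and 7.53, and each was held by 1 clone among the 2070 measured on at least 3 arrays. The study describes its tabulated ratios as medians, whereas the match holds for the mean over the arrays and not for the median. The medians over the arrays correspond to ratios of 7.98, 7.59 and 6.91. RNABK74 was matched to a transcript similar to alcohol sulfotransferase, also described as a hydroxysteroid sulfotransferase subunit or ST-60. RNABK88 was matched to an entry that is called senescence marker protein 2A in one listing and hydroxysteroid sulfotransferase a (STa) in another. RNABK44 was matched to the hydroxysteroid-preferring sulfotransferase 2. In a table of RefSeq genes of the assembly GRCr8, Smp2a is a synonym of Sult2a6, whereas STa and Sth2 are synonyms of Sult2a1, and ST-60 is not listed. Which paralog RNABK88 carries is thus not settled, and RNABK88 and RNABK44 may both stand for Sult2a1. Signals of close relatives on spotted cDNA cannot be told apart in these data. The growth hormone and estrogen experiments of the study were not analysed here.

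Sult2a2 is a further relative, and none of the clone names found as synonyms points to it. The gene of RNABK74 is not settled, because ST-60 is not listed. The genes Sult2a6, Sult2a1 and Sult2a2 lie on chromosome 1 in this order and on the same strand. Between the first pair of genes 5 annotated genes are listed, of which 1 codes for protein, and between the second pair 1, which does not. Their promoters are shown as background to the family, and whether they bear on the values of the clones was not tested. Each sequence runs 5′ to 3′ on the minus strand from 250 to 61 bases before the annotated start (RefSeq, GRCr8), at chr1:84097869-84098058, chr1:84639008-84639197 and chr1:85104593-85104782. Capitals mark the letters GGTCATGAA, the core of an inverted repeat of a nuclear receptor half-site with no base between the repeats, and the letters TTGCNNAA, a C/EBP core.
Sult2a6: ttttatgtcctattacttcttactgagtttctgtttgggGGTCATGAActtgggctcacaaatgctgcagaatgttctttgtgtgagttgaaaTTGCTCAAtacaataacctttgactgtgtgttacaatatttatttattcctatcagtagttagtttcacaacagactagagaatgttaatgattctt
Sult2a1: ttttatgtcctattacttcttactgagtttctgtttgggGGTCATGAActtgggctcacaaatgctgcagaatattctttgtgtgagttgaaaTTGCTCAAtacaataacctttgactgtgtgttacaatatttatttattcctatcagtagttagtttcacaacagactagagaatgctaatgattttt
Sult2a2: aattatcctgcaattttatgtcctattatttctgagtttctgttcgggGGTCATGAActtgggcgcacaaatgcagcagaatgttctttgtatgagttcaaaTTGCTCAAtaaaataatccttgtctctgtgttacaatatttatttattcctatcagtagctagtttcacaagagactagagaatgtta

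Over the 190 bases the windows of Sult2a6 and Sult2a1 were identical at 187, or 98.4%. Sult2a2 was identical to Sult2a6 at 92.7% and to Sult2a1 at 91.5% of 177 aligned bases. The inverted repeat core was found in all 3 windows, starting 211 bases before the start in Sult2a6 and Sult2a1 and 202 bases before it in Sult2a2. Of 33469 windows of this length, some of them of the same gene, 48 held it on either strand, or 0.143%. The C/EBP core stood once in each of the 3 windows and in 7.41% of all windows. The letters TTCNNNGAA, bound by STAT5 proteins downstream of growth hormone, were in none of the 3 windows and in 5.99% of all, which says only that they are not in these bases. The motifs were searched on both strands, did not overlap one another, and were picked with the sequences in view. Such matches describe letters and are not shown to be sites.

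RNABK74, the alcohol sulfotransferase-like clone, had log2 ratios of 4.47, 3.15, 2.66 and 2.85 on arrays 1 to 4. These correspond to 22.2-, 8.86-, 6.32- and 7.19-fold higher levels in the female animal. Array 1 stood above the others, which lay close together. Its mean was 3.28 ± 0.82 (log2, SD, n = 4).

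RNABK88, senescence marker protein 2A or STa, had log2 ratios of 4.50, 2.88, 2.44 and 2.97 on arrays 1 to 4, that is 22.6-, 7.38-, 5.43- and 7.81-fold. Again array 1 was the highest and array 3 the lowest. The mean was 3.20 ± 0.90 (log2, SD, n = 4).

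RNABK44, the hydroxysteroid sulfotransferase 2 clone, had log2 ratios of 4.13, 2.81, 1.95 and 2.77, or 17.5-, 6.99-, 3.86- and 6.84-fold. It gave the lowest of the 12 values on array 3, where the female level was still 3.86-fold that of the male. Its mean was 2.91 ± 0.90 (log2, SD, n = 4). No value of any of the 3 clones was near 0, and all 12 were higher in the female animal.

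**Figure D1:**
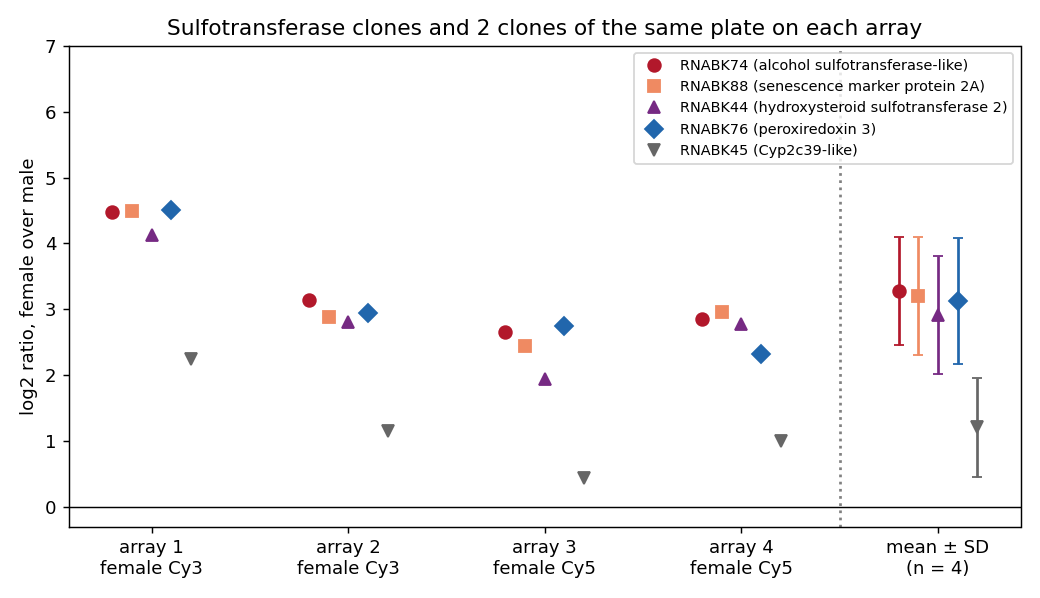
Log2 ratio of female over male (vertical axis) on each array for the 3 sulfotransferase clones and for RNABK76 and RNABK45 of the same plate, with the mean and SD (bars, n = 4) at the right. The sulfotransferase clones sit between 4.13 and 4.50 on array 1 and between 1.95 and 3.15 on arrays 2 to 4.

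Array 1 widened the spread of all 3 clones. Without it the means were 2.88 ± 0.25 for RNABK74, 2.76 ± 0.28 for RNABK88 and 2.51 ± 0.49 for RNABK44 (log2, SD, n = 3), or 7.38-, 6.79- and 5.69-fold. By the labels each array held a female and a male animal. Those of array 1 alone carry no animal number, so the labels do not show that they differ from the animals on the other arrays. A larger ratio on array 1 can come from its female animal, its male animal or the hybridisation, which cannot be told apart in a ratio.

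Among the 2070 clones, RNABK74 had the 2nd, RNABK88 the 3rd and RNABK44 the 5th highest mean. The 1st was RNABC95, a clone not named here, which was measured on 3 arrays with log2 ratios of 4.56, 3.33 and 2.81 on arrays 1, 3 and 4 and was also highest on array 1. The 4th was RNABK76, matched to peroxiredoxin 3, and the 6th RNAA28, matched to alpha-1-B glycoprotein, with means of 3.13 and 2.82 (log2). All 3 sulfotransferase clones were among the 14 that exceeded 4-fold, or 0.676% of the clones measured on at least 3 arrays. The clones were chosen on this same contrast, so that nothing is read from the count. The 14 became 9 without array 1, 9 where all 4 arrays were required and 21 where 2 arrays were enough, and the 3 clones were among the 9 in both cases. By the lowest of their 4 values, RNABK74 ranked 1st and RNABK88 2nd among the 1449 clones measured on all arrays, and RNABK44 ranked 7th. The choice by the mean of these values favours high ranks, so nothing is read from them either. RNABK74 was 2.66 or more (log2) on every array. Apart from the 3 clones, 4 clones stayed above 1.95, the lowest value of RNABK44, on every array.

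**Figure D2:**
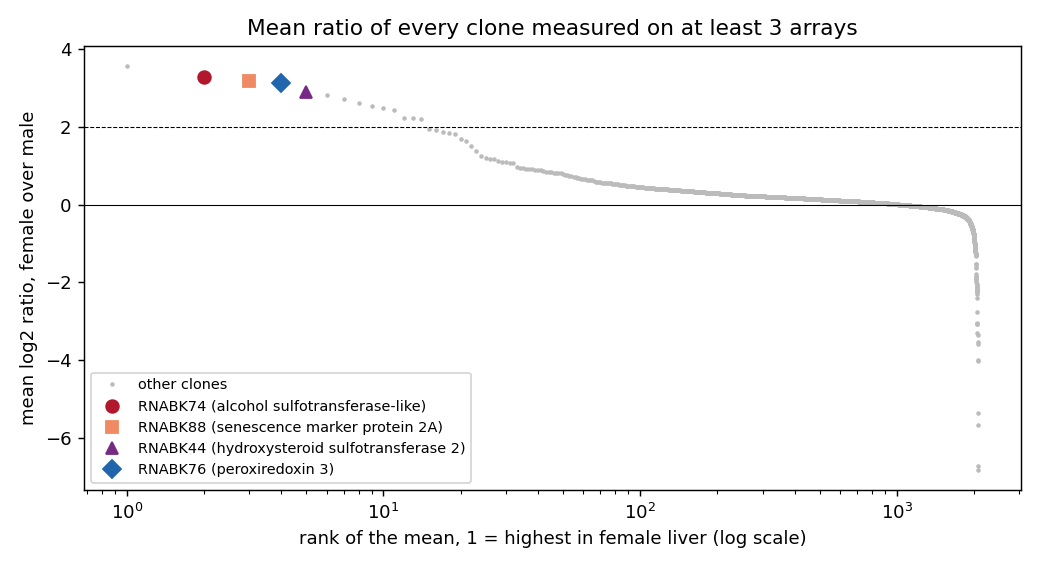
Mean log2 ratio of female over male (vertical axis) of the 2070 clones measured on at least 3 arrays, ordered by rank (horizontal axis, log scale), with the 3 sulfotransferase clones and RNABK76 in colour and a dashed line at 4-fold. The sulfotransferase clones hold ranks 2, 3 and 5.

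The 3 clones were compared with each other on the same array, where both RNA samples are shared. RNABK74 minus RNABK88 was -0.02, 0.26, 0.22 and -0.12 on arrays 1 to 4 (log2 difference). Neither clone was higher throughout, and the mean difference of 0.08 was smaller than its SD of 0.19 (n = 4). RNABK44 was lower than both others on all 4 arrays. RNABK74 exceeded it by 0.35, 0.34, 0.71 and 0.07 on arrays 1 to 4, with a mean difference of 0.37 ± 0.26 (SD, n = 4). The mean difference of RNABK88 minus RNABK44 was 0.28 ± 0.19 (SD, n = 4) and ranged from 0.08 to 0.49. These differences were not tested, since the means chose the clones. The differences between clones on 1 array reached 0.71, while each clone differed between arrays by 1.81 to 2.18.

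The order of the arrays was therefore nearly the same for the 3 clones. Their average log2 ratio was 4.37, 2.95, 2.35 and 2.86 on arrays 1 to 4, with an SD of 0.86 between arrays, which was 0.32 without array 1. After the mean of each clone and of each array was removed, an SD of 0.15 was left. The 21 other clones that were measured on all arrays and were over 2-fold higher in female liver served for comparison. Their average was 2.23, 1.71, 1.60 and 1.63 on arrays 1 to 4, with an SD of 0.30 between arrays, which was 0.058 without array 1, and 0.49 left. An average over 21 clones evens out differences between clones, so these SDs are not like for like. The SD of a single clone had a median of 0.36 (range 0.13 to 1.39) for the other clones, which lay at a lower level. It had a median of 0.90 (range 0.82 to 0.90) for the sulfotransferase clones. Relative to its own mean, a sulfotransferase clone was at 1.36 to 1.42 on array 1 and at 0.67 to 0.81 on array 3. The medians of the other clones were 1.20 and 0.88 on these arrays, and their ranges enclosed the sulfotransferase values on each array. Of the 21 clones, 12 were highest on array 1, and 4 were both highest on array 1 and lowest on array 3, as all 3 sulfotransferase clones were. The clones share animals, array and possibly sequence, and they are not replicates of each other.

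**Figure D3:**
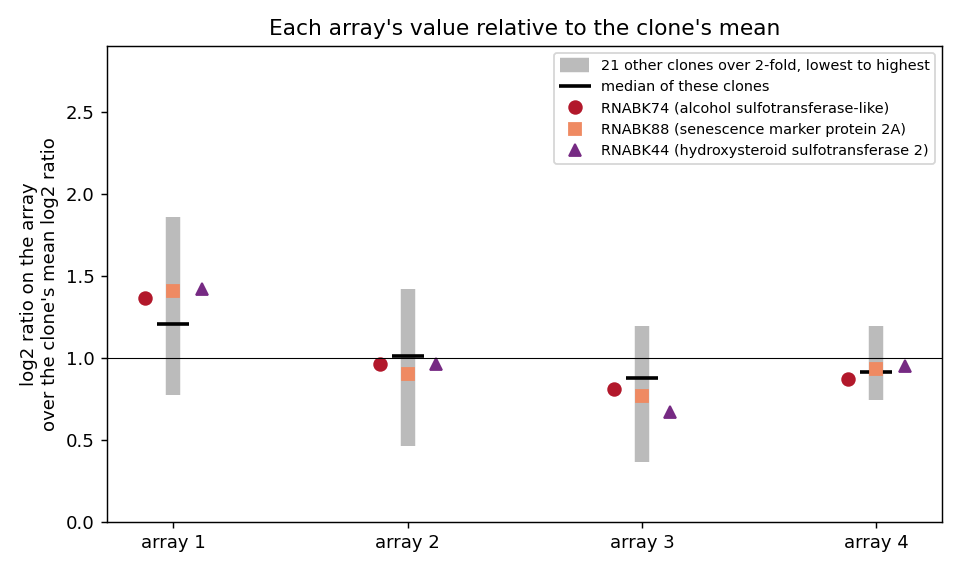
Log2 ratio on each array divided by the mean log2 ratio of the clone (vertical axis) for the 3 sulfotransferase clones (symbols) and for 21 other clones over 2-fold higher in female liver (grey bar from lowest to highest, black line at the median). On array 1 the sulfotransferase clones lie between 1.36 and 1.42, above the median of 1.20.

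Whether the dye moved the ratios was tested, since the difference between dye orientations does not enter a mean over 2 arrays of each kind. RNABK74 averaged 3.81 with the female sample in Cy3 and 2.75 with it in Cy5, RNABK88 averaged 3.69 and 2.70, and RNABK44 3.47 and 2.36 (log2). The dye term (Cy5 minus Cy3) was -1.06 ± 0.39, -0.99 ± 0.47 and -1.11 ± 0.44 (log2, SE) for the 3 clones. In limma, with Benjamini-Hochberg adjustment over 2070 clones, none passed (adjusted p = 0.737, 0.738 and 0.737; unadjusted p = 0.0267, 0.0703 and 0.0363). Over all clones 0 passed, that is 0% of those tested, and 124 or 5.99% had an unadjusted p under 0.05. Array 1 exceeded array 2, of the same orientation, by 1.33, 1.62 and 1.32 (log2) for the 3 clones, which was more than the orientations differed. Without array 2 the dye terms were -1.72, -1.79 and -1.77 and passed, and without array 1 they were -0.39, -0.18 and -0.45 and did not. In each case a single array stood for the Cy3 orientation and was assumed to vary like the others, since the spread came from arrays 3 and 4 and the moderation over clones, so that these calls do not show a dye effect. An effect of the dye and of the animals on array 1 cannot be told apart with 2 arrays per orientation. In both orientations the female level was the higher one for each of the 3 clones. The choice by a high mean made this likely beforehand, and nothing is read from it.

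The clone whose values were most like those of the sulfotransferases was RNABK76, matched to peroxiredoxin 3, a mitochondrial enzyme that reduces peroxides. Its log2 ratios were 4.51, 2.94, 2.74 and 2.31 on arrays 1 to 4, with a mean of 3.13 ± 0.96 (SD, n = 4). On arrays 1 to 3 it lay within or just above the range of the sulfotransferase clones, and on array 4 below all of them. Over the 4 arrays its root mean square distance from the average of the 3 clones was 0.35 (log2). Each of the 3 clones lay at 0.15 to 0.37 from the average of the other two, an average that does not contain it. The next among the 1446 other clones measured on all arrays were RGIAU13 at 0.80 and RNABD18 at 0.83. RGIAU13 was matched to the fatty acid translocase Cd36. RNABD18 was matched to an entry that is an unnamed transcript in 1 listing and similar to a Kruppel-like factor in another. RNABD12, not named here, followed at 0.89, RNAA28 at 1.03 and RNABD06, not named here, at 1.17. Among clones measured on all arrays, the distance thus more than doubled from RNABK76 to the next. RNABC95, with 4.56, 3.33 and 2.81 on arrays 1, 3 and 4, was not compared because it lacks array 2. A small distance in part restates a like mean, and the mean chose the 3 clones.

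When the mean of each clone was removed, so that only the course over the arrays counted, other clones were nearest. The first was RNABK45, matched to a Cyp2c39-like transcript, of a cytochrome P450 subfamily that hydroxylates drugs, fatty acids and steroids. Its log2 ratios of 2.24, 1.14, 0.44 and 1.005 followed those of the sulfotransferases at a lower level, with a distance of 0.12. By this measure each of the 3 clones lay at 0.11 to 0.18 from the average of the other two. The second was RNAA44, a male-predominant clone whose name is not settled, with log2 ratios of -3.90, -5.69, -6.38 and -5.44 and a distance of 0.20. It had the least negative ratio on array 1 and the most negative on array 3. Next came RGIAG17, not named here and over 2-fold higher in female liver, at 0.26. RNABK76 ranked 7th by this measure with 0.35. None of the 6 nearest clones was the same under both measures (0 of 6).

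Of the 8 other entries for steroid metabolism in the ratio tables of the study, 3 were matched by a clone of their own. These were RNABK45 and 2 clones matched to Cyp2c12, a female-predominant P450 of rat liver that hydroxylates sulfated steroids. RNAA13 had log2 ratios of 2.21, 2.42 and 2.09 on arrays 1, 2 and 4, and RNAA17 had 2.18, 2.25, 1.49 and 1.92 on arrays 1 to 4. Both were highest on array 2, unlike the sulfotransferase clones, and their SDs were 0.17 and 0.34 (log2, n = 3 and n = 4), against 0.82 to 0.90. The direction of these clones was fixed by the choice of entries and is not a result.

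The 3 sulfotransferase clones came from a single plate, RNABK, as did RNABK76 and RNABK45. Of its 96 wells 65 gave a ratio on at least 3 arrays, with a median of -0.05 (log2). The 60 clones of the plate beside these 5 lay between -1.08 and 1.19, and 57 of them within 2-fold. The highest of them, RNABK56, was close to RNABK45, which had a mean of 1.21 and was set apart by its name. The share within 2-fold over all plates was not counted, so nothing is read from that of this plate. Of the 14 clones over 4-fold higher in female liver, 4 were on plate RNABK, 4 on RNABD and 2 on RNAA, while 4 other plates held 1 each. Beside the 65 of RNABK, RNABD had 41 and RNAA 64 clones on at least 3 arrays, and the 4 other plates 18 to 36. On RNABK 3 of the 4 are the sulfotransferase clones, chosen by their mean, so nothing is read from its count. Of the 9 left without array 1, 4 were on RNABK, 3 on RNABD and 1 each on RNAA and RGIAU, and the counts were the same where all 4 arrays were required. Wells numbered next to the sulfotransferase clones were read as a description. RNABK43 had a mean of 0.16 ± 0.21 (log2, SD, n = 4), RNABK87 -0.25 ± 0.30 and RNABK89 0.14 ± 0.14, so these 3 neighbours were near 0. RNABK73 had 0.59 and 0.51 on the 2 arrays that measured it, RNABK75 had no ratio, and RNABK45 was the neighbour of RNABK44 described above. The part of carry-over between wells in the likeness of RNABK45 and RNABK76 to the sulfotransferases was not tested.

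**Figure D4:**
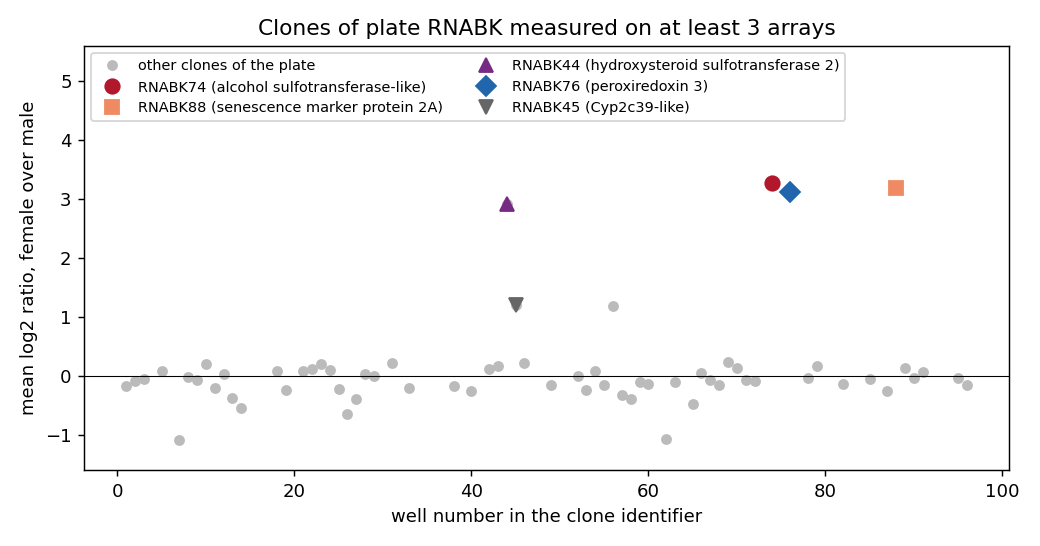
Mean log2 ratio of female over male (vertical axis) of the 65 clones of plate RNABK measured on at least 3 arrays, against the well number in the clone identifier (horizontal axis). The 3 sulfotransferase clones and RNABK76 lie between 2.91 and 3.28, and 57 of the 60 grey clones lie within 2-fold.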

How the data were processed

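Per the labels, 4 two-colour cDNA arrays each compared liver RNA of 1 female and 1 male rat. The authors quantified spots in GenePix Pro, subtracted local background, left out absent or weak spots, normalized ratios by lowess in the SMA package and deposited the normalized log2 ratios. The versions of both programs are not stated. Between 30.0% and 46.3% of spots were filled per array, and column medians lay from -0.0021 to 0.0094. Neither log base nor direction is given beside the values, and both were taken from the match of row means with the female over male ratios of the study. Pairs of columns, of the same or of opposite dye orientation, correlated at r = 0.75 to 0.83 over 1449 clones, so all run one way. Spot intensities were not used here, and 4 arrays limit the precision.

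Means and SDs were computed in Python 3.11.15 for clones on at least 3 arrays. The dye term was fitted to all of them with lmFit and eBayes in limma 3.58.1 (R 4.3.3), two-sided, at an adjusted p of 0.05, after a check on simulated data. The simulated noise was independent between clones, so the check does not cover a shift that clones share on an array. The sexes were not tested against each other. Members, clone lists and motifs were chosen with earlier results of these data known. Clones to name were the 3 members, the 6 nearest in profile, neighbours in rank and well, and tabulated genes of steroid metabolism with a clone of their own. RNAA44 and RGIAG17 were added as nearest after clone means were removed. The matches of other names were made by comparing the tabulated ratios with the row means. Alternatives were centring, equal scaling, medians, stricter and looser detection, single orientations, robust moderation and each array left out.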

Additional observations from a re-analysis of the deposited data

Results flagged for a closer look

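Of 13 sets of 4 array values examined (5 clones, 6 differences between clones and 2 properties of the arrays), 1 held an array far from the other 3, and chance gives about 1 in 20. It concerned all ratios and not a sulfotransferase clone. Array 4 had a median absolute deviation of 0.24, arrays 1 to 3 had 0.17 to 0.18, and the gap was 0.895 of the whole range. It also held the fewest ratios, 1871. For the 3 sulfotransferase clones the gap between array 1 and the next array was 0.73, 0.75 and 0.61 of the range, below the limit for 4 values.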

How the results depend on the processing

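The mean log2 ratios of RNABK74, RNABK88 and RNABK44 were 3.28, 3.20 and 2.91 under median centring and 3.37, 3.27 and 2.97 under equal scaling. They were 3.81, 3.69 and 3.47 with the female sample in Cy3, and 2.75, 2.70 and 2.36 with it in Cy5. With single arrays left out the means ranged from 2.88 to 3.49 for RNABK74, 2.76 to 3.45 for RNABK88 and 2.51 to 3.24 for RNABK44. The median over the arrays gave 3.00, 2.92 and 2.79. Medians, single orientations and single arrays left out cannot shift a mean of 4 values by its SD, so a comparison with the SD decides nothing. The SD between arrays of their average was 0.86, ranged from 0.32 (without array 1) to 1.05 with single arrays left out and was 1.06 under equal scaling, and the SD left after clone and array means were removed ranged from 0.12 to 0.18 with single arrays left out. With single arrays left out the mean differences between clones ranged from 0.02 to 0.15 (RNABK74 minus RNABK88), 0.25 to 0.47 (RNABK74 minus RNABK44) and 0.21 to 0.35 (RNABK88 minus RNABK44). The count of clones over 4-fold higher in female liver was 14, ranged from 9 (without array 1) to 14 with single arrays left out, and was 9 where all 4 arrays were required and 21 where 2 were enough. The dye term was called for 0 clones in limma except without array 1 (6 clones) and without array 2 (27 clones). The dye terms of the 3 clones ranged from -1.72 to -0.39, -1.79 to -0.18 and -1.77 to -0.45, and all 3 passed only without array 2, where a single array stood for one orientation and added nothing to the spread. Of the 6 clones nearest in profile, 0 were shared with the distance after each clone's mean was removed. The arrays form 1 group. Each array holds both sexes, so each ratio is already a comparison within the array, and no further pairing was made. The number of arrays and the spots left out limit these values.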
